A study of Mus musculus with 12 samples.

Results

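Adult enterocytes (AE) of the villus were compared between old and young mice, with 3 libraries of each age, in a series of 12 libraries that also holds intestinal stem cells (ISC). The members of this comparison are the 16265 genes whose counts added up to 10 or more in the 6 AE libraries, out of 34245 rows in the table of raw counts. Each library was placed by the age and cell type that its own column name spells, because 8 of 12 sample titles name different groups in their parts. Poly(A)+ RNA was sequenced. Values are given as CPM, counts scaled by the library's total multiplied by its TMM factor from edgeR. These factors were 1.08, 1.07 and 0.988 in the young AE libraries and 0.993, 0.931 and 0.945 in the old. A lower factor gives higher CPM than scaling by the total alone would.

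Both groups were male mice on a C57BL/6 background with the Lgr5-EGFP-IRES-creERT2 knock-in, by which a green fluorescent protein and a tamoxifen-dependent Cre recombinase are made from the *Lgr5* locus. The young mice were about 8 months old and the old mice about 27 months, and no treatment is given for either. AE were sorted from the villus fraction as living cells with a strong Epcam signal and no CD45 or CD31. Such a gate also admits goblet, enteroendocrine and tuft cells, so AE names a fraction and not a pure cell type. As RNA was measured in bulk, fewer cells of a type and less RNA per cell cannot be told apart. Per the methods each age was represented by 3 mice, and p-values measure the spread between the 3 libraries of an age.

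Villus enterocytes arise from stem cells in the crypt, move up the villus and are shed at its tip. Their brush border carries hydrolases that finish the digestion of sugars and peptides and transporters that take up the products, while absorbed fat leaves the cell in lipoproteins. Enteroendocrine cells, scattered among them, release gut hormones, and different subsets of these cells make different hormones.

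The enterocyte markers were abundant at both ages. *Vil1*, which codes for villin of the microvilli, averaged 3546 ± 403 CPM in young against 4144 ± 500.3 CPM in old AE (SD, n = 3). *Apoc3*, an apolipoprotein, was at 974 ± 302 and 1433 ± 132 CPM, and *Sis*, the sucrase-isomaltase of the brush border, at 4586 ± 1774 and 5692 ± 89.4 CPM. None of the 3 passed the test for a difference (FDR = 0.833 for *Apoc3* and 0.854 for the others, edgeR).

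The libraries, Y1, Y2 and Y3 (young) and O1, O3 and O5 (old) after their columns, held between 12728661 and 15473227 counts, except Y3 with 110794420. A count of 3, taken as the limit of detection, equals 0.0274 CPM in Y3 and up to 0.249 CPM in the others, which covers counting error only. Y3 stood apart in the genes of MHC class II, with a sum of 202 CPM against 5265 to 7900.4 in the other 5 libraries. Y1 had the highest sum of enteroendocrine hormone genes, 7991 CPM against 1338 to 3852. Y2 had the highest sums of stem cell markers (601 CPM against 127 to 236) and of proliferation markers (534 against 105 to 183). Y2 also held 5 genes at 2 CPM or more that had 0 counts in the other 5 libraries, looked up after values were seen, namely *Gkn2* (264 counts), *Gkn1* (218), *Tff1* (208), *Car1* (124) and *Tff2* (86). *Gkn1*, *Gkn2*, *Tff1* and *Tff2* are known as products of the stomach lining. The part of these features in the results was not tested.

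No gene was called between old and young AE at an FDR under 0.05 with edgeR's quasi-likelihood test, which is 0% of those tested, and the lowest FDR was 0.22, for *Socs3*. An unadjusted p under 0.05 was reached by 264 genes that were higher in old AE (1.62% of those tested) and 545 that were lower (3.35%). The median log2 fold change of old over young was -0.04 over all genes. DESeq2, the test named in the study's methods, called 17 genes, of which 11 rose (0.0677% of 16242 genes with an FDR) and 6 fell (0.0369%). limma-voom called 0, with 635 genes at an unadjusted p under 0.05. All 3 libraries of one age lay above all 3 of the other for 736 genes that were higher in old AE (4.53%) and 1008 that were lower (6.2%). These shares of all genes are the background for the counts within gene groups.

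**Figure D1:**
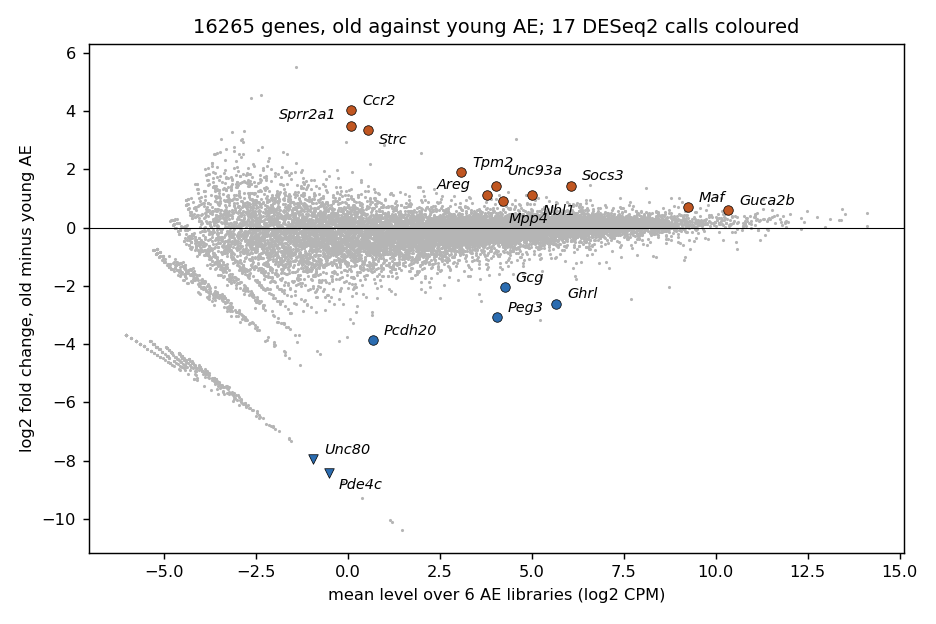
Log2 fold change of old over young AE (vertical axis) against the mean level over the 6 AE libraries in log2 CPM (horizontal axis), one grey point for each of the 16265 genes tested. The 17 genes called by DESeq2 are coloured, orange for the 11 that rose and blue for the 6 that fell. Triangles mark *Unc80* and *Pde4c*, which had 0 counts in every old library, so that their height depends on the prior count and is no measured fold; the 3 lowest points, *Gkn2*, *Gkn1* and *Tff1*, were seen in library Y2 alone.

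Among the genes that rose by DESeq2 were signalling molecules and a regulator of cytokine responses. *Socs3*, a feedback inhibitor of cytokine signalling through JAK and STAT proteins, was at 36.8, 34.3 and 38.3 CPM in Y1, Y2 and Y3 and at 110.2, 105 and 80.2 CPM in O1, O3 and O5. The young values were close together and every old value lay above them. The log2 fold change was 1.43 with a standard error of 0.17 (FDR = 0.22 with edgeR, 3.79e-10 with DESeq2), and it stayed between 1.35 and 1.56 when any one library was left out.

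*Areg*, which codes for amphiregulin, a ligand of the EGF receptor, was at 6.52, 8.06 and 11.2 CPM in the young libraries and 16.9, 22.1 and 17.8 CPM in the old. *Guca2b*, the precursor of uroguanylin, a peptide that acts on guanylate cyclase C of the enterocyte surface, was at 990.5, 958 and 1128 CPM against 1592, 1499 and 1580.2 CPM. *Maf*, a transcription factor, was at 451, 469 and 459 CPM against 759, 645 and 831 CPM. The ages did not overlap in any of the 3, and the log2 fold changes were 1.13 (standard error 0.24), 0.60 (0.17) and 0.70 (0.17) in that order. The DESeq2 FDR was 0.0315 for *Areg*, 0.0308 for *Guca2b* and 0.0255 for *Maf*, and the edgeR FDR was 0.833 for each.

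*Tpm2*, a tropomyosin that binds actin filaments, was at 4.81, 2.92 and 3.11 CPM in young and 19.9, 10.1 and 10.1 CPM in old AE, with O1 the highest. *Unc93a*, a membrane protein, was at 7.62, 9.33 and 9.48 CPM against 17, 24.2 and 30.3 CPM. *Nbl1*, a secreted antagonist of BMP ligands, was at 19, 21.2 and 20.1 CPM against 32.6, 42.6 and 55.6 CPM. Here too each old library was above each young one, with log2 fold changes of 1.90, 1.43 and 1.12 and DESeq2 FDRs of 0.000577, 0.000514 and 0.00802. *Mpp4*, a scaffold protein of the membrane-associated guanylate kinase family, averaged 13 ± 2.03 CPM in young against 24.3 ± 2.41 CPM in old AE (SD, n = 3), with an FDR of 0.0248 by DESeq2.

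The other 3 genes that rose were nearly silent in young AE. The chemokine receptor gene *Ccr2* was at 0.0609, 0.0635 and 0.174 CPM in young and 2.41, 2.01 and 1.66 CPM in old AE, where Y1 and Y2 held 1 count each. *Strc*, which codes for stereocilin of the inner ear's hair bundles, was at 0.366, 0.127 and 0.265 against 4.01, 2.01 and 1.91 CPM. *Sprr2a1*, a small proline-rich protein of epithelial barriers, was at 0.0609, 0.317 and 0.155 against 1.6, 3.4 and 0.832 CPM. Old values lay above young ones in each, within a few CPM. The DESeq2 FDRs were 3.93e-05, 6.79e-05 and 0.00909. *Sprr2a1* belongs to a family of near-identical copies, and its counts are uncertain to the extent that copies shared reads.

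The tested neighbours of these genes on the chromosome that are given here were called by neither test. *Ccr2* lies on chromosome 9 of GRCm38 (124101950 to 124113557), and *Cxcr6*, a chemokine receptor gene 290189 bases away, had at most 7 counts in any library. *Strc* on chromosome 2 (121363728 to 121387168) overlaps the end of *Ckmt1*, a mitochondrial creatine kinase gene on the other strand, by 10 bases. *Ckmt1* had a log2 fold change of 0.00 (standard error 0.25), and *Catsper2* on the other side had 0.32 (0.40). Markers of white blood cells, among which *Ccr2* is best known, were counted beside it. Of 15 tested T cell and intraepithelial lymphocyte markers 0 had a p under 0.05, and their sum ran from 17.3 to 50.6 CPM in young and from 19.5 to 52.7 CPM in old AE. Of 16 monocyte, macrophage and neutrophil markers 5 had no counts and 8 were tested. A p under 0.05 was reached by 1 of them, lower in old AE, beside 3.35% of all genes. The sum of these markers ran from 11.1 to 13.6 CPM in young and from 11.8 to 18.7 CPM in old AE. The part of such cells in the *Ccr2* values was not tested.

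**Figure D2:**
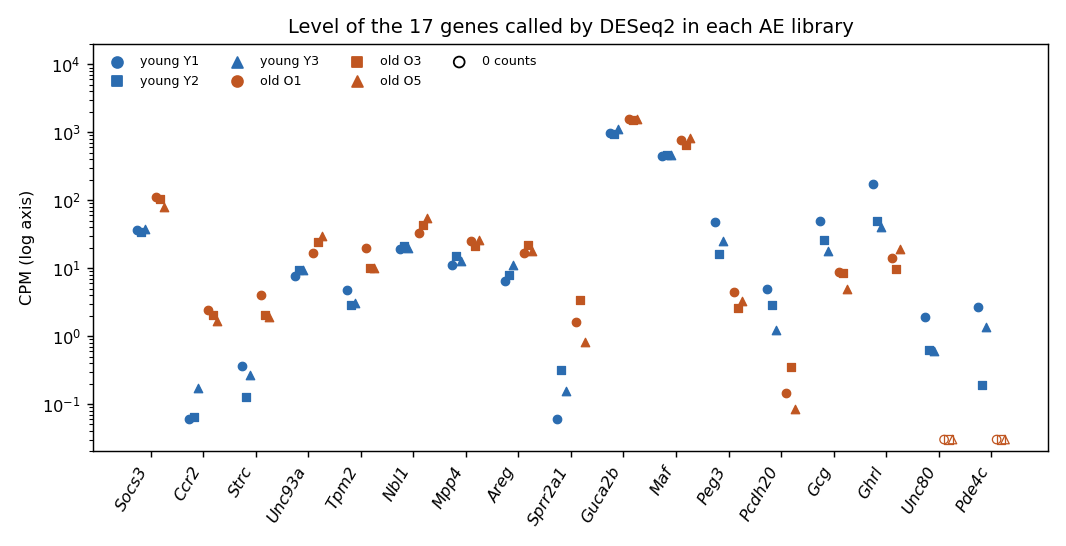
Level in CPM (vertical log axis) of each of the 17 genes called by DESeq2 (horizontal axis) in each AE library, young in blue and old in orange, with a symbol shape for each library and open symbols at the bottom for 0 counts. In none of the 17 do the ages overlap. *Socs3* shows 3 close young values between 34.3 and 38.3 CPM, while *Ghrl* and *Peg3* spread widely among the young libraries.

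*Peg3* had the lowest p among the genes that fell by DESeq2. It codes for a zinc finger protein and is imprinted, being expressed from the paternal copy. *Peg3* was at 47.1, 16.4 and 24.9 CPM in young and at 4.52, 2.57 and 3.33 CPM in old AE. Every young library lay above every old one, and the log2 fold change was -3.08 with a standard error of 0.41 (FDR = 0.305 with edgeR, 9.27e-10 with DESeq2). It stayed between -3.37 and -2.57 without any one library, and with no filter on low counts edgeR called *Peg3* and *Socs3* and no other gene.

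Other imprinted genes, several of which act in fetal growth, were mostly measured at low levels. Of 16 listed genes 11 were tested, and 9 of these had lower fitted values in old AE, 6 with a p under 0.05 beside 3.35% of all genes, against 2 with higher values and none under 0.05. The count of 6 became 2 without Y1 and 2 without O3, beside 2.48% and 1.67% of all genes in those fits. *Dlk1*, a Notch-related membrane protein, was at 3.6, 1.9 and 1.09 CPM in young and 0.729, 0.416 and 0.166 CPM in old AE. *Grb10*, an adaptor that dampens insulin signalling, was at 0.609, 0.571 and 0.402 against 0.146, 0 and 0.166 CPM. The ages did not overlap in either, although no old library held over 2 counts of *Grb10*.

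*Zim1* and *Usp29* are the nearest tested neighbours of *Peg3* on chromosome 7 and are imprinted with it, *Usp29* lying 146 bases away on the other strand. *Zim1* had 12, 0 and 61 counts in the young libraries and 0 in each old one, and *Usp29* had 20, 0 and 76 counts against 1, 0 and 0. Library Y2 therefore had neither gene, and the ages overlapped. *Igf2*, a growth factor, and *Igf2r*, which clears it, had log2 fold changes of -0.08 and 0.12 with standard errors of 0.29 and 0.26. The median log2 fold change of the imprinted genes was -2.31, or -1.23 with genes under the limit of detection in one group set to their bound, and -0.91 with edgeR's own filter on low counts. No listed gene but *Peg3* was called by either test.

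*Pcdh20*, a protocadherin of cell adhesion, was at 4.88, 2.86 and 1.22 CPM in young and 0.146, 0.347 and 0.0832 CPM in old AE, and its fitted log2 fold change, -3.87 ± 0.73 (standard error), had an FDR of 0.00255 with DESeq2 and 0.833 with edgeR. *Unc80*, a subunit of the sodium leak channel complex, was at 1.89, 0.635 and 0.603 CPM in young AE and had 0 counts in each old library, which makes it at least 4.62-fold lower with each old library set to 3 counts, or 2.74-fold without Y1. *Pde4c*, a cyclic AMP phosphodiesterase, was at 2.68, 0.19 and 1.34 CPM and also had 0 counts in old AE, at least 6.23-fold lower by the same floor, or 3.40-fold without Y1. The young values of *Pde4c* reached down to 3 counts, in Y2. DESeq2 gave FDRs of 0.0255 for *Unc80* and 0.0237 for *Pde4c*.

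Further genes with a low p, apart from the chaperone genes described below, were called by neither test. *Arl14*, a small GTPase, averaged 23.7 ± 3.99 CPM in young against 47.7 ± 12.7 CPM in old AE (SD, n = 3), and *Cnpy1* at 18.2 ± 5.59 and 39.4 ± 10.7 CPM. In the other direction *Adgrl2*, an adhesion receptor, was at 7.01 ± 1.33 and 2.72 ± 0.718 CPM, and *Nrn1*, the membrane-anchored neuritin, at 2.95 ± 1.05 and 0.544 ± 0.355 CPM. *Casc4* was at 3.71 ± 0.205 and 1.54 ± 0.0754 CPM and *Abce1*, an ATPase of ribosome recycling, at 37 ± 9.95 and 20.8 ± 2.04 CPM. None of these overlapped between ages, and their FDRs were 0.833 with edgeR and between 0.0641 and 0.273 with DESeq2.

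The study names *Rps4l* as the gene of a ribosome subunit and adds that it may be a pseudogene. *Rps4l*, on chromosome 6 (148354656 to 148355598), was read from a second table of log2 values scaled by the authors. It was at 10.94, 10.88 and 11.21 in the young and 6.82, 5.86 and 6.26 in the old libraries. The difference of means was -4.69 (exact two-sided permutation test, p = 0.1, the smallest that 3 against 3 libraries can give). The gene lies within the bounds of *Tmtc1*, a gene on the minus strand (148232430 to 148444389) for a membrane protein. *Tmtc1* was at 0.853, 0.254 and 0.32 CPM in young AE and at 0.0729, 0 and 0 CPM in old AE, or at 1 count or fewer in each old library, with an FDR of 0.833 (edgeR).

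Some hormones of enteroendocrine cells were lower in old AE and others were not. *Gcg*, the gene of proglucagon, from which GLP-1 is cut in the gut, was at 49.1, 25.7 and 18.2 CPM in young and 8.68, 8.54 and 4.99 CPM in old AE. *Ghrl*, the gene of the appetite hormone ghrelin, was at 171, 48.9 and 40.8 against 14, 9.72 and 18.9 CPM. The ages were separate in both, and Y1 was the highest library. Both genes fell by DESeq2 (FDR = 0.000514 for each), with log2 fold changes of -2.06 (standard error 0.38) and -2.61 (0.54), which were -1.55 and -1.65 without Y1.

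The other hormones were called by neither test. *Sst*, somatostatin, was at 828, 191 and 31.8 CPM in young and 39.4, 45.6 and 105 CPM in old AE, so the ages overlapped. *Nts*, neurotensin, was at 936, 329.9 and 236 against 824, 259 and 419 CPM, and *Tph1*, the enzyme that starts serotonin synthesis in enterochromaffin cells, at 224, 118 and 169 against 312, 209.7 and 156 CPM. The log2 fold changes of *Nts* and *Tph1* were 0.00 (standard error 0.55) and 0.41 (0.30). Of the 10 tested genes for hormones and their synthesis 8 had lower fitted values, with a median log2 fold change of -0.84 that became 0.11 without Y1.

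Of 17 genes of secretory granules and enteroendocrine transcription factors, 15 had lower fitted values in old AE, 4 with a p under 0.05 beside 3.35% of all genes. *Scg3*, a secretogranin, was at 37.1, 12.9 and 14.7 CPM in young and 9.04, 6.18 and 5.65 CPM in old AE, with no overlap. *Scg2*, another granule protein, was at 188, 60.2 and 54.9 against 58.1, 23.9 and 32.7 CPM. The most used granule markers had other values. *Chga*, chromogranin A, was at 1154, 557 and 573 against 1310.1, 813 and 692 CPM, and *Chgb*, chromogranin B, had a log2 fold change of 0.09 (standard error 0.37). The median of this group, -0.76, became 0.06 without Y1.

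Because Y1 was high in most of these genes, they were also set against *Chga* within each library, a ratio chosen after the values were seen. Per 1000 *Chga* counts there were 42.6, 46.2 and 31.8 *Gcg* counts in young AE and 6.62, 10.5 and 7.21 in old AE. For *Ghrl* the ratios were 148, 87.7 and 71.2 against 10.7, 12 and 27.3, and for *Scg3* they were 32.1, 23.3 and 25.6 against 6.9, 7.59 and 8.18. The ages did not overlap in any of the 3, and Y1 lay near the other young libraries for *Gcg* and *Scg3*. In all, 18 of 26 genes had lower ratios in each old library than in each young one and 0 had higher ones, beside 7.87% and 0.283% of 16230 genes set against *Chga* in the same way, while *Tph1*, *Nts* and *Sst* were among the 8 that overlapped. With *Chgb* as the denominator 12 of 26 were lower (4.34% of all genes), *Gcg*, *Ghrl*, *Scg2* and *Scg3* among them, and 1, *Chga* itself, was higher (0.499%). These counts move with their shared denominator, and the mean of *Chga* itself was higher in old AE, with a log2 fold change of 0.30 (standard error 0.34).

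**Figure D3:**
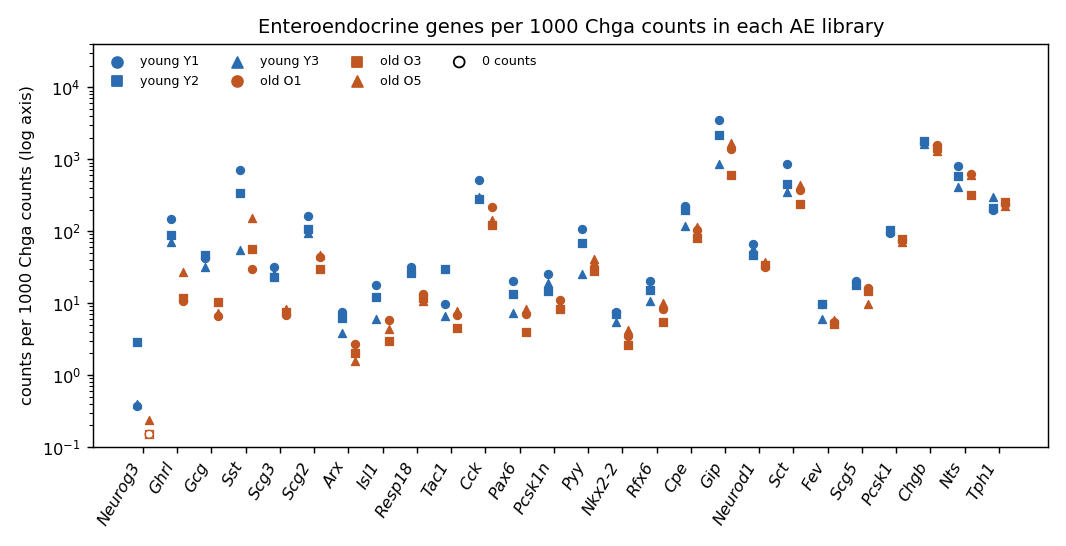
Counts of 26 enteroendocrine genes (horizontal axis) per 1000 *Chga* counts (vertical log axis) in each young (blue) and old (orange) AE library, ordered by the ratio of the young to the old mean, with open symbols at the bottom for 0 counts. *Gcg*, *Ghrl*, *Scg2* and *Scg3* lie lower in every old library, whereas *Nts* and *Tph1* at the right overlap between ages.

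*Ghrl* lies on chromosome 6 (113716119 to 113719880, minus strand) and shares 695 bases with *Gm44033* and 3 bases with *Gm26982*, both on the plus strand. *Gm44033* had 26, 1 and 9 counts in young and 0, 1 and 0 in old libraries, and *Gm26982* had a log2 fold change of 0.13 (standard error 0.44). The library kit was directional, but whether the gene counts used the strand is not given in the sources used here, so reads from the shared bases are uncertain. *Gcg* on chromosome 2 (62474530 to 62483650) has *Fap* and *Gm13565* as its nearest tested neighbours, with FDRs of 0.868 and 0.97 (edgeR).

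Per the methods, ISC were sorted as living GFP-high crypt cells without the antibody staining for Epcam, CD45 and CD31 used for AE. In ISC the called genes had differing age values. *Peg3*, *Pcdh20* and *Strc* had log2 fold changes of old over young of -3.42, -4.64 and 3.36 there, beside -3.08, -3.87 and 3.35 in AE. In ISC the lower age was near 0 counts, so the size of these folds is uncertain. Old ISC had 0, 0.142 and 0.586 CPM of *Peg3* and 0.146, 0 and 0 CPM of *Pcdh20*. Young ISC had 0.166, 0.0744 and 0 CPM of *Strc*. The lowest FDR of these genes in ISC was 0.639, for *Pcdh20* (edgeR). *Ccr2* was higher in old ISC too, at 0, 0.0744 and 0 CPM in young and 1.17, 1.71 and 2.23 CPM in old libraries. *Socs3*, *Gcg* and *Ghrl* had 0.13, 0.25 and -0.07 in ISC, beside 1.43, -2.06 and -2.61 in AE. The difference of the age effects had an unadjusted p of 0.00109 for *Socs3*, 0.00302 for *Gcg* and 0.0113 for *Ghrl*, and none passed the FDR threshold with edgeR (FDR = 0.729, 0.797 and 1.00). DESeq2 called this difference for *Socs3* (FDR = 0.0382) but not for *Gcg* and *Ghrl* (FDR = 0.098 and 0.361). It also called it for *Unc93a* (FDR = 0.0109), whose log2 fold change was -1.11 in ISC beside 1.43 in AE. The ISC value rests on low levels, 0.595 to 0.663 CPM in young and 0.214 to 0.41 CPM in old mice. For *Peg3*, *Pcdh20*, *Strc* and *Ccr2* the unadjusted p of this difference with edgeR was 0.673, 0.559, 0.914 and 0.14, which does not show that the effects are equal.

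Heat shock genes code for chaperones that keep proteins folded, and their fitted values were lower in old AE throughout the list, with no call. Of 9 genes 9 were lower, 7 of them with a p under 0.05 beside 3.35% of all genes, and the median log2 fold change was -1.14. *Hsph1*, a co-chaperone of the HSP110 type, was at 91.5, 101 and 10.4 CPM in young and 4.3, 9.51 and 8.4 CPM in old AE. The young libraries thus split, with Y1 and Y2 high and Y3 just above the old ones.

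The same split appeared in other members. *Hspa8*, the constitutive HSC70, was at 596, 465 and 265 against 209, 242 and 203 CPM, and *Hspd1*, the mitochondrial chaperonin HSP60, at 101, 151 and 54.3 against 47, 48 and 37.6 CPM. *Hspa1a*, the inducible HSP70, was at 19.3, 15.2 and 2.75 against 2.84, 3.4 and 4.24 CPM, so that Y3 was below each old library. *Dnajb1*, an HSP40, had the smallest difference, -0.14 on the log2 scale (standard error 0.18).

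The lowest FDR in the list was 0.833 with edgeR and 0.216 with DESeq2. Without Y3, edgeR called *Hsph1* and no other gene (FDR = 0.0252), and the median of the list was -1.48, against -0.80 without Y1. *Ahsa1*, an activator of HSP90 that is not on the list, was at 49.6, 49.4 and 35.3 CPM in young and 26, 30.3 and 24.9 CPM in old AE. Of 10 genes of the unfolded protein response, a stress pathway of the endoplasmic reticulum, 5 had higher and 5 lower fitted values in old AE. Their median log2 fold change was -0.16, and 1 had a p under 0.05, lower in old AE (3.35% of all genes). Among its chaperones, *Pdia4* was at 104, 114 and 56.3 against 60.2, 47.4 and 43.7 CPM and *Hspa5* (BiP) at 825, 790.4 and 404 against 503, 418 and 401 CPM. *Atf4* and *Xbp1*, transcription factors of the same stress pathway, had log2 fold changes of 0.07 (standard error 0.16) and 0.02 (0.20).

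*Hspd1* and its partner *Hspe1*, the co-chaperonin HSP10, lie head to head on chromosome 1, and the bases before their starts hold a heat shock element, the motif of heat shock factor. The motif was searched on both strands as 3 units of GAA or its complement TTC in alternation, with NN (any 2 bases) between units, in the 250 bases before each start (RefSeq promoters, GRCm38.p6). It was present in 2 of the 7 listed genes with a promoter entry, *Hspd1* and *Hspe1*, and in 0.47% of the 11498 tested genes with an entry. These stretches are shown because both genes of the pair had a p under 0.05, *Hspe1* at 21.1, 29.6 and 12.4 against 14, 11.7 and 9.98 CPM. They are chr1:55088012-55088091 on the minus strand and chr1:55088044-55088123 on the plus strand, each 5′ to 3′ on its gene's strand with the matches in capitals, so the capitals are the same bases read from either side.
Hspd1: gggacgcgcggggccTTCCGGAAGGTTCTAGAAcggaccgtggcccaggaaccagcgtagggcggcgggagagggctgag
Hspe1: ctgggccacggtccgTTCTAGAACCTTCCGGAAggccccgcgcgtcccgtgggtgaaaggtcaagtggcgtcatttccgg
A match describes the letters of a window and does not show that a factor was bound.

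The circadian clock is a loop in which CLOCK and ARNTL (BMAL1) switch on *Per*, *Cry* and *Nr1d* genes, whose products repress them in turn. In old AE 12 of 15 clock genes had higher fitted values, 4 with a p under 0.05 beside 1.62% of all genes. The ages did not overlap in 3, all higher in old AE, beside 4.53% of all genes. *Per3*, a period gene, was at 4.69, 20.2 and 12 CPM in young and 30.2, 32.8 and 22.1 CPM in old AE. *Nr1d1* (REV-ERB alpha) was at 57.1, 168 and 206 against 270.2, 276 and 247 CPM. In both genes each old library was above each young one and Y1 was the lowest. The median log2 fold change was 0.54, or 1.02 without Y2 and 0.44 without O3. None of the 15 had a p under 0.05 without O1 or without O3.

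*Dbp*, an output gene of the loop, was at 4.51, 79.5 and 41.6 CPM in young and 177, 194 and 63 CPM in old AE, and *Ciart*, a repressor, at 0, 1.33 and 0.237 against 5.47, 4.23 and 0.665 CPM. *Arntl* was at 50.6, 12.1 and 27.7 against 8.46, 5.97 and 25.2 CPM. From Y1 over Y3, O5, Y2 and O1 to O3, *Dbp* went up and *Arntl* went down at each step, so that the order of the libraries was not that of age. None of the 15 genes had an FDR under 0.833 (edgeR). The hour at which the mice were killed is not given in the sources used here, and its part in these values was not tested.

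Clock factors bind short motifs, the E-box by CLOCK and ARNTL and the D-box by DBP and its relatives. *Ciart* and *Per3* are shown because they had the largest log2 fold changes among the clock genes with a p under 0.05. The E-box, searched as CACGTG, which reads the same on both strands, lay in the 250 bases before the start in 4 of 13 clock genes with an entry (*Ciart*, *Cry1*, *Per1* and *Tef*), beside 9.57% of 11498 genes. The D-box, searched as TTATGTAA on both strands, lay there in 1 of the 13, *Per3*, beside 0.652% of genes. Matches are in capitals, 3 in *Ciart* (chr3:95882245-95882359, minus strand) and 2 in *Per3* (chr4:151044796-151044885, minus strand), from the same RefSeq promoters.
Ciart: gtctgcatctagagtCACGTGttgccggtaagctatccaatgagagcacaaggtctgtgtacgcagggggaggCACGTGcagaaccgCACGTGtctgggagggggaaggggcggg
Per3: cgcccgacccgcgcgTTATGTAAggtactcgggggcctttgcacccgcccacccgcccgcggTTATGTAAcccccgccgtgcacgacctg

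**Figure D4:**
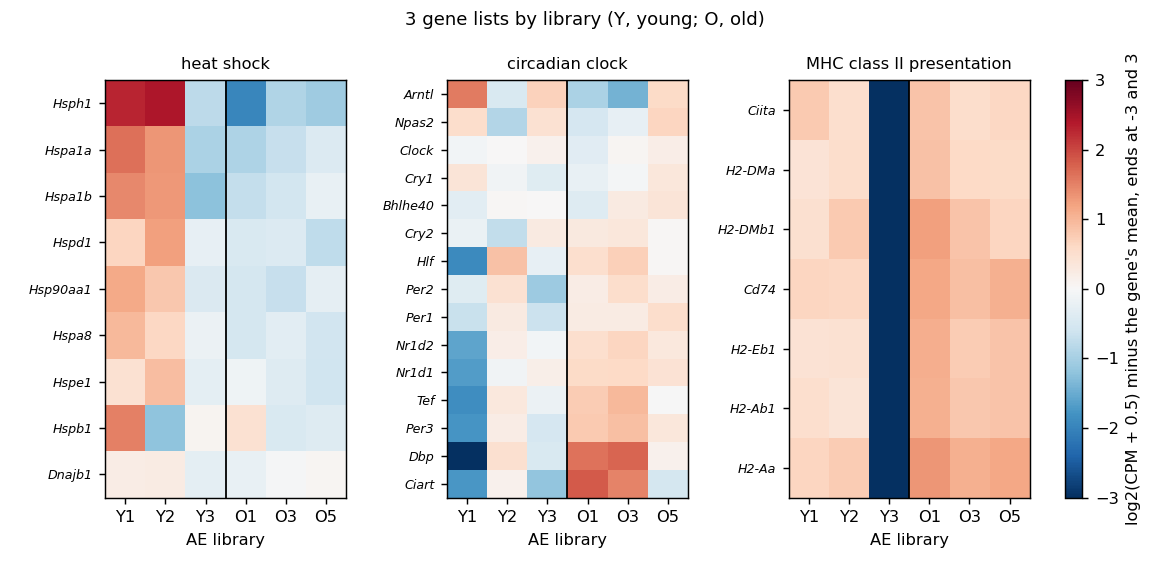
Heat maps of the heat shock, circadian clock and MHC class II genes (vertical) in the 6 AE libraries (horizontal), coloured by log2(CPM + 0.5) minus the gene's mean over the 6 libraries, on a scale that ends at -3 and 3, with a line between young and old. Most heat shock genes are high in Y1 and Y2, with *Hspb1* low in Y2. *Nr1d2*, *Nr1d1*, *Tef*, *Per3*, *Dbp* and *Ciart* are lowest in Y1, and every MHC class II gene is low in Y3.

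MHC class I molecules, which present peptides from inside the cell, had higher fitted values in old AE in 12 of 12 genes, 3 with a p under 0.05 (1.62% of all genes) and 5 without overlap (4.53%), and the median log2 fold change was 0.36. *Tapbp*, tapasin, which helps to load peptides, was at 378, 342 and 357 CPM in young and 477, 466 and 440.3 CPM in old AE. *H2-K1*, a class I heavy chain, was at 2084, 1742 and 1553 against 2816, 2369.8 and 2201 CPM, without overlap like *Tapbp*. *Tap2*, a subunit of the peptide transporter, was at 174, 120.1 and 103 against 270.3, 171 and 195 CPM and overlapped in O3. The lowest FDR was 0.833 (edgeR), and the median was 0.23 without Y3. Class I heavy chain genes are near-identical copies, so their counts are uncertain.

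MHC class II molecules, which enterocytes make in response to interferon gamma, had a median log2 fold change of 0.99, with 5 of 7 genes higher in old AE without overlap (4.53% of all genes) and 0 with a p under 0.05. *Cd74*, the invariant chain, was at 2506, 2441 and 74.6 CPM in young and 3599, 3000.0 and 3356 CPM in old AE. *Ciita*, the master activator of these genes, was at 65.5, 53 and 3.42 against 68.3, 53.9 and 57.8 CPM, so that Y3 alone was low. Without Y3 the median was 0.43, and 3 of the 7 had a p under 0.05, beside 5.01% of all genes in the same fit.

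Among chemokines, *Cxcl16*, a ligand of CXCR6, was at 24.3, 22.3 and 28.3 CPM in young and 38.9, 34.8 and 41.9 CPM in old AE, with no overlap. It was higher by 0.62 ± 0.16 (standard error) on the log2 scale, with an FDR of 0.833 by edgeR and 0.321 by DESeq2. *Ccl20*, which draws CCR6-bearing cells, was at 0.731, 0.761 and 0.621 against 1.68, 1.46 and 1.08 CPM, without overlap at a low level. *Ccl28*, a mucosal chemokine for plasma cells, was at 23.6, 31 and 4.98 against 7.22, 8.68 and 6.32 CPM, with Y3 below the old libraries. Of 10 tested chemokines 1 had a p under 0.05 in each direction, *Cxcl16* higher (1.62% of all genes) and *Ccl28* lower (3.35%).

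The genes of digestion and absorption had slightly higher values in old AE. Over 17 brush border hydrolases, 15 transporters and 21 genes of fat uptake and lipoprotein assembly, 47 of 53 had higher fitted values, with a median log2 fold change of 0.28 beside -0.04 over all genes. In that direction 5 had a p under 0.05 (1.62% of all genes) and 11 did not overlap (4.53%), and in the other direction 1 (3.35%) and 0 (6.2%). The lowest FDR was 0.833 (edgeR), so none was called.

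*Slc15a1*, the peptide transporter PEPT1, was at 434, 758 and 588 CPM in young and 897, 1066 and 853 CPM in old AE, and *Slc6a19*, which carries neutral amino acids, at 809.6, 1080.2 and 1087 against 1302, 1506 and 1284 CPM. *Ace*, the angiotensin-converting enzyme, a peptidase of the brush border, was at 1781, 2478 and 2701 against 3603, 4074 and 2960.3 CPM. *Npc1l1*, through which cholesterol is taken up, was at 1635, 1675 and 2172 against 2177, 2467 and 3105 CPM. In these 4 genes Y1 was the lowest library and every old library was above every young one, for *Npc1l1* by a narrow margin between Y3 and O1. The medians of the hydrolases, the transporters and the fat genes were 0.28, 0.40 and 0.28, and 0.17, 0.23 and 0.14 without Y1. For the fat genes the median was 0.15 without O3 and 0.42 without Y3.

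Some members lay apart. *Tmprss15*, enteropeptidase, which activates trypsinogen in the duodenum, was at 10.3, 29.4 and 16.6 CPM in young and 2.99, 11.7 and 1.75 CPM in old AE. *Akp3*, an intestinal alkaline phosphatase, was at 93.6, 398 and 201 against 65.5, 273 and 6.9 CPM. O5 was the lowest library for both. *Fabp6*, the ileal bile acid binding protein, was at 208, 219 and 34.8 against 389.5, 406 and 385 CPM, with Y3 the lowest. Of 8 tested markers of the distal small intestine 7 had higher, and of 7 proximal ones 5 had lower fitted values in old AE, with medians of 0.49 and -0.26, the latter 0.10 without O5. The part of the stretch of gut sampled in these values was not tested.

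The absorption genes were then set beside the age difference in ISC, from other libraries that carry the same codes. In ISC 51 of the 53 had lower fitted values in old mice, with a median log2 fold change of -0.74 beside 0.01 over the 15552 genes tested there, and 46 were higher in AE and lower in ISC. The difference of the age effects had a p under 0.05 with AE above ISC in 20 of the 53 (1.85% of all 17377 genes tested) and with AE below ISC in 0 (2.51%). edgeR called none of the 53, beside 1 of all 17377 genes, or 2 with the library code as a replicate block, beside 21 over all genes. DESeq2 called 5, beside 43 over all genes, namely *Ace*, *Slc15a1*, *Slc5a12*, *Slc13a2* and *Apoc2*. *Apoc2* overlaps *Gm44805* on the same strand with almost equal counts, so its reads are uncertain. Levels were far lower in ISC, where *Ace* was between 36.9 and 226 CPM. The 15 T cell and intraepithelial lymphocyte markers, which belong to other cells of the villus and crypt epithelium, also had a lower sum in old ISC. It was between 15.2 and 37.5 CPM in young and between 4.63 and 7.12 CPM in old mice, with a median log2 fold change of -3.24. Of these 15 markers 9 had a p under 0.05 for the difference of age effects, each with AE above ISC (1.85% of all genes). The part of cells other than stem cells in the ISC values was not tested.

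**Figure D5:**
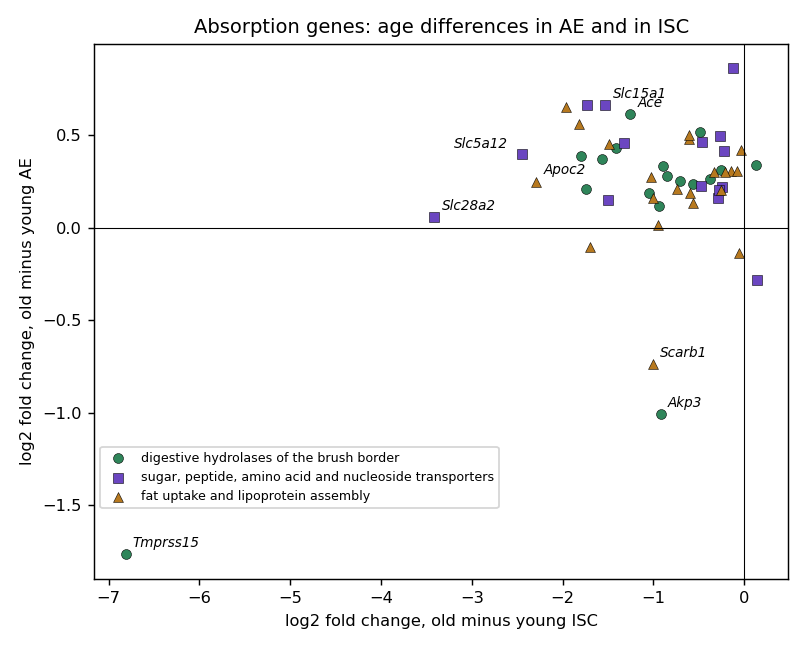
Log2 fold change of old over young AE (vertical axis) against that of old over young ISC (horizontal axis) for 53 genes, one point per gene, with a symbol each for brush border hydrolases, transporters and fat uptake. The 46 points at the upper left are higher in old AE and lower in old ISC; *Tmprss15*, *Akp3* and *Scarb1* are the lowest in AE.

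Over all genes, 1 of 17377 (0.00575%) had a called difference between the age effects of AE and ISC, and 21 had one with the library code as a replicate block. *Adora2b*, the A2B adenosine receptor, was at 19.6, 22.3 and 23.3 CPM in young and 25.2, 27.5 and 29.6 CPM in old AE, with no overlap. In ISC it was at 1.91, 2.53 and 2.35 CPM in young and 0.22, 0.57 and 0.41 CPM in old mice. The log2 fold changes were 0.33 in AE and -2.54 in ISC, and their difference was 2.91 (FDR = 0.0281 with edgeR, 0.0179 with the replicate block). With one library at a time left out the difference stayed between 2.54 and 3.21, and its FDR was between 0.0187 and 0.223. It was under 0.05 without O3 or O5 of ISC or Y3 of AE, and over 0.05 without any other library.

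Markers of other gut cells were counted in the same way. All 20 proliferation markers and 12 of 14 stem cell markers had lower fitted values in old AE, with medians of -1.30 and -0.96 that became -0.21 and -0.04 without Y2. All 12 tuft cell markers had lower fitted values too, with sums of 854, 525 and 292 CPM in young and 444, 377 and 372 CPM in old AE and a median of -0.57 that became -0.12 without Y1. Of 10 tested goblet cell markers 4 had higher and 6 lower fitted values in old AE, with a median of -0.05 that became 0.24 without Y1. A p under 0.05 was reached by 2 of them, both lower, beside 3.35% of all genes. These were *Agr2*, a disulfide isomerase of mucin folding, with a log2 fold change of -0.60 and *Spink4*, a protease inhibitor, with -0.94. None of these markers was called by either test.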

How the data were processed

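Per the labels and the study's methods, RNA of sorted cells was made into directional poly(A)+ libraries and sequenced from a single end. The submitters' processing notes name Trim Galore (0.4.4), HISAT2 (2.1.0), GRCm38 and DESeq2, and the annotation release is not given in the sources used here. The deposited raw table holds whole-number counts per gene. A second deposited table holds log2 values scaled by the authors, used for *Rps4l* alone, and the authors' −log10 FDR columns of their own comparisons, which were not used. Columns were assigned to groups by their own names.

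Counts were fitted in R (4.3.3) with edgeR (4.0.16), using TMM scaling, genes with at least 10 counts in total, the quasi-likelihood test and Benjamini-Hochberg adjustment at an FDR of 0.05, and standard errors were the log2 fold change divided by the square root of the test's F. The difference of age effects between AE and ISC was the interaction term over all 12 libraries. DESeq2 (1.42.0), limma-voom (limma 3.58.1), other scalings and filters, robust dispersions, a thinned Y3 and omission of each library were alternatives. The code was tested on simulated counts with the same fixed dispersion for every gene, which does not measure the power of the tests at the spread of these libraries. AE and ISC libraries of the same code deviated together (correlation 0.121 to 0.287 in 6 of 6 pairs, against -0.214 to 0.0583 for other pairs of an age), so the code was used as a block in an alternative.

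Genes were named if called by edgeR or DESeq2, if among the 10 lowest p in each direction with a mean of at least 1 CPM, if named for AE by the study, if on a gene list, if the nearest tested neighbour of *Ccr2*, *Strc*, *Peg3*, *Gcg* or *Ghrl*, or if called for the difference of age effects. Some named genes are not reported here. The members and lists were chosen with earlier results of these data known. Promoter sequences come from RefSeq.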

Additional observations from a re-analysis of the deposited data

Results flagged for a closer look

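*Adora2b* was the 1 gene whose age effects in AE and ISC differed by the interaction test with edgeR, by 2.91 on the log2 scale (FDR = 0.0281). For *Adora2b* and 4 other named genes, every old AE library lay above every young one while every old ISC library lay below every young one. Their log2 fold changes in AE and ISC were 1.43 and -1.11 for *Unc93a*, 0.33 and -2.54 for *Adora2b*, 0.61 and -1.26 for *Ace*, 0.66 and -1.53 for *Slc15a1*, and 0.45 and -1.49 for *Apoa1*. This opposite placing itself was not tested. For *Unc93a* the ISC values were low, at 0.663, 0.595 and 0.662 CPM in young and 0.256, 0.214 and 0.41 CPM in old mice. The unadjusted p of its age difference in ISC was 0.112 (edgeR). The interaction test gave the 4 genes other than *Adora2b* FDRs of 0.302, 0.797, 0.724 and 1.00 in the same order with edgeR. DESeq2 called it for *Unc93a* (FDR = 0.0109), *Ace* (0.0471) and *Slc15a1* (0.0109) but not for *Apoa1* (0.399). Over the 16265 genes, 27 were placed this way and 23 the opposite way.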

How the results depend on the processing

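The number of genes called between old and young AE was 0 with edgeR, 17 with DESeq2 and 2 with no filter on low counts, and between 0 and 1 when one library was left out. It was 0 under each other scaling, filter, dispersion setting and depth tried and with limma-voom, including the quasi-likelihood fit without the legacy method, an alternative chosen after seeing the data. Without Y3, 744 genes were higher and 1327 lower at an unadjusted p under 0.05, against 264 and 545 with it, and the total was 428 without O3 and 418 without O5. The difference of age effects between AE and ISC was called for 1 gene with edgeR, for 21 with the library code as a replicate block, which uses the pairing of AE and ISC libraries, for 43 with DESeq2, and for 0 to 3 without one library. The block and DESeq2 shared 14 of these genes. *Rps4l* stayed between -4.95 and -4.47 without one library. The 26 genes named for a call, for a low p or by the study kept their direction in every alternative that gave them a value, while single list members were not followed through the alternatives. Of 35 gene lists, the median kept its sign without each library in 18 and changed sign without some library in 17. The causes were not tested. Genes within a few CPM are limited by depth, as 3 counts equal up to 0.249 CPM outside Y3.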

Other observations

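Other gene groups were counted in the same way. Of 14 genes of fatty acid oxidation and ketogenesis and 15 antioxidant enzymes, 0 had a p under 0.05 in either direction, and the median log2 fold changes were -0.05 and 0.01. Without Y3 the medians were 0.67 and 0.34, with 4 genes higher at a p under 0.05 in each group and 2 antioxidant enzymes lower, beside 5.01% and 8.94% of all genes in that fit. Of 19 interferon-stimulated genes 0 had a p under 0.05, with a median of -0.04 that became 0.58 without Y1, where 5 were higher at a p under 0.05 beside 1.4% of all genes. Of 15 genes of cholesterol synthesis 1 was higher at a p under 0.05, beside 1.62% of all genes. This was *Stard4*, which moves sterols within the cell, with a log2 fold change of 0.47. Of 12 tested cell cycle inhibitors and senescence genes 1 was lower at a p under 0.05, beside 3.35% of all genes, and 0 were without Y1. This was *Cdkn1c*, an imprinted inhibitor, at 30.7, 13.8 and 9.69 CPM in young and 11.5, 8.47 and 9.06 CPM in old AE, with overlap. Of 10 antimicrobial and villus base genes 9 had lower fitted values in old AE, with a median of -0.38. The median stayed between -0.46 and -0.22 without any one library. A p under 0.05 was reached by 1 gene, lower in old AE, beside 3.35% of all genes. This was *Dmbt1*, a scavenger receptor of the mucosa, which was at 471, 1418 and 163 CPM in young and 215, 196 and 90.2 CPM in old AE, with overlap. None of these genes was called by edgeR or DESeq2.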
